A study of Mus musculus with 6 samples.

Results

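The collagen genes of the mouse were examined for peaks of H3K4me3 at start sites and in gene bodies, in cochlear progenitor cells that express Lgr5. Members were the protein-coding genes of the mm10 annotation whose symbol has the form Col, a type number, a and a chain number. This gave 44 of 21883 protein-coding genes on the main chromosomes. The cells came from cultured cochleae of C57BL/6 mice of either sex, aged postnatal day 0 to 3, that carry the Lgr5-EGFP-creERT2 allele, and were sorted by the green fluorescence driven from Lgr5. The 2 groups were cells left untreated and cells treated for 12 h with neomycin, an aminoglycoside antibiotic toxic to hair cells. Both groups carry the same reporter allele, and the dose of neomycin is not given in the sources used here. Each group had 2 H3K4me3 libraries and 1 input library, and the inputs were not analysed here. Nothing in the labels ties each library to its own culture, so p-values measure only the spread between these libraries, which may be technical.

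Collagens are secreted proteins whose alpha chains wind around each other into a helix and assemble into fibrils, sheets or filaments outside the cell. Fibrillar collagens form the fibres of connective tissue, type IV collagens form the sheet of every basement membrane, and the fibril-associated (FACIT) collagens coat fibrils. In the cochlea, types II, IX and XI build the fibrils of the tectorial membrane, the matrix over the hair cells, and type IV chains line the cochlear basement membranes. H3K4me3, the trimethylated form of lysine 4 on histone H3, is found at start sites of active and poised genes, most of all where the DNA is rich in CpG dinucleotides.

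The peak lists held 10520 to 15938 peaks per library and the total of reads behind them is not given, so depth is unknown. Peaks were shorter with neomycin (median 70 and 142 bp) than without (310.5 and 340 bp). The shortest peak also differed by list, at 48 and 110 bp with neomycin and 187 and 234 bp without. Each list thus has its own floor on length, and treatment and peak calling cannot be told apart in the lengths below. A start site is called marked when a peak overlaps the window of 1 kb either side of it by at least 1 bp. Of the supporting and progenitor cell markers, 9 of 12 were marked in all 4 libraries, Lgr5 and Sox9 among them. Of 7 macrophage and blood markers, none was marked in any library. Of 12 mesenchyme and fibrocyte markers that are not collagens, the neomycin libraries each marked 0 and the untreated libraries 4 each. For 7 glia markers the counts were 4, 3, 4 and 2, and for 7 endothelium markers 2, 1, 1 and 0. For 10 hair cell markers they were 2, 2, 5 and 2, with Atoh1 marked in untreated cells alone (601 and 955 bp), for 6 neuron markers 1, 3, 4 and 3, and for 6 melanocyte markers 2, 2, 2 and 0. Series of 4 values here and in what follows run from neomycin replicate 1 and then 2 to untreated replicate 1 and then 2. Beside these counts, 34.8, 33.6, 47.0 and 36.3% of all genes were marked per library, 16.6% in all 4 and 45.0% in none. The marker lists are short, and none was tested against these shares. Both untreated lists were deposited under names with H3K4me2, but every label says H3K4me3. The labels were followed and the mark of the untreated lists is uncertain to that extent.

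The sequences just outside 6 collagen genes, and the bases shared by the Col4a1 and Col4a2 starts, show the range of CpG content among the members. They come from RefSeq for GRCm38.p6, the assembly of mm10, and run 5′ to 3′ on the strand of the gene, with CpG in capitals. Each of the first 6 is the 150 bases before the annotated gene span. Col5a1 (chr2:27886231-27886380, plus strand), Col9a2 (chr4:121039416-121039565, plus strand) and Col18a1 (chr10:77166531-77166680, minus strand) were marked in all 4 libraries.
Col5a1: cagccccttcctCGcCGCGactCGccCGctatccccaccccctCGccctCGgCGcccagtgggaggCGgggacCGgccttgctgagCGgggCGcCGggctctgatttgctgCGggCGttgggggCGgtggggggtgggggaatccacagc
Col9a2: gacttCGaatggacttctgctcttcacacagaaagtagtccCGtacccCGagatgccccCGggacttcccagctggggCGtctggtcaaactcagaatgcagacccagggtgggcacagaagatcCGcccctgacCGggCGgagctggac
Col18a1: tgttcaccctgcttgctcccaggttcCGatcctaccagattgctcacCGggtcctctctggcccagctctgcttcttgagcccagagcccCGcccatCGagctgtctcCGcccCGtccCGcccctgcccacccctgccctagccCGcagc
Col6a2 (chr10:76623631-76623780, minus strand) was marked with neomycin alone, in both libraries.
Col6a2: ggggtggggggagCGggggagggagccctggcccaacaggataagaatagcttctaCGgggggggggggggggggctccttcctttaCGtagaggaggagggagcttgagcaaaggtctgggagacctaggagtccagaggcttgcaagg
Col1a2 (chr6:4505468-4505617, plus strand) and Col3a1 (chr1:45311388-45311537, plus strand), which encode chains of the main fibrils of loose connective tissue, were marked in none.
Col1a2: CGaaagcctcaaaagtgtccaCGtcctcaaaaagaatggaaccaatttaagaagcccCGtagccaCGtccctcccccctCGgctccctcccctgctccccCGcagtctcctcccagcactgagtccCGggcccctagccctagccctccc
Col3a1: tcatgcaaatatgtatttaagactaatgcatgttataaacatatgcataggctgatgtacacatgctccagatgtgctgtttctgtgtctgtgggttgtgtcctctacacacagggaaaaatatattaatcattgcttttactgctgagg
The start sites of Col4a1 (minus strand) and Col4a2 (plus strand), which encode the chains found in all basement membranes, lie 21 bp apart on opposite strands. The Col4a1 start has the higher coordinate, so the genes run across each other, and their annotated spans overlap by 85 bp. The bases from one start to the other are chr8:11312805-11312826, inside both genes, written on the plus strand.
Col4a1 to Col4a2: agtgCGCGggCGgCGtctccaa
The stretches before Col5a1, Col9a2 and Col18a1 hold 16, 8 and 8 CpG, that before Col6a2 holds 3, and those before Col1a2 and Col3a1 hold 7 and 0.

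Of the 44 collagen genes, 21 (47.7%) were marked in at least 1 library and 6 in all 4, beside 55.0% and 16.6% of all genes. Per library, 12 (27.3%, 95% Wilson interval 16.3 to 41.8) were marked in neomycin replicate 1, 14 (31.8%, 20.0 to 46.6) in neomycin replicate 2, 13 (29.5%, 18.2 to 44.2) in the first untreated library and 12 (27.3%, the same interval as neomycin replicate 1) in the second. The shares of all genes were 34.8%, 33.6%, 47.0% and 36.3%. The collagen share lay below that of all genes in each of the 4 libraries, and the interval of untreated replicate 1 alone left out the share of all genes. The intervals cover counting error only. Of the members, 7 were marked in 1 library, 4 in 2, 4 in 3 and 23 in none. With peaks of -log10 q under 10 left out, none of the 6 was marked in all 4. That cut left only 747 and 283 neomycin peaks, against 6279 and 2259 untreated ones. So few neomycin peaks leave little room for any gene to be marked in all 4, and the share of all genes at this cut was not counted. The reference lists a start site for 35 members. For the other 9 (Col1a1, Col2a1, Col4a3, Col5a2, Col9a3, Col12a1, Col14a1, Col22a1 and Col26a1) the gene end with peaks in more libraries stood in for it. Where neither end had a peak within 1 kb, the lower end was used, which need not be the true start. Of the 9, 4 were marked in some library.

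**Figure D1:**
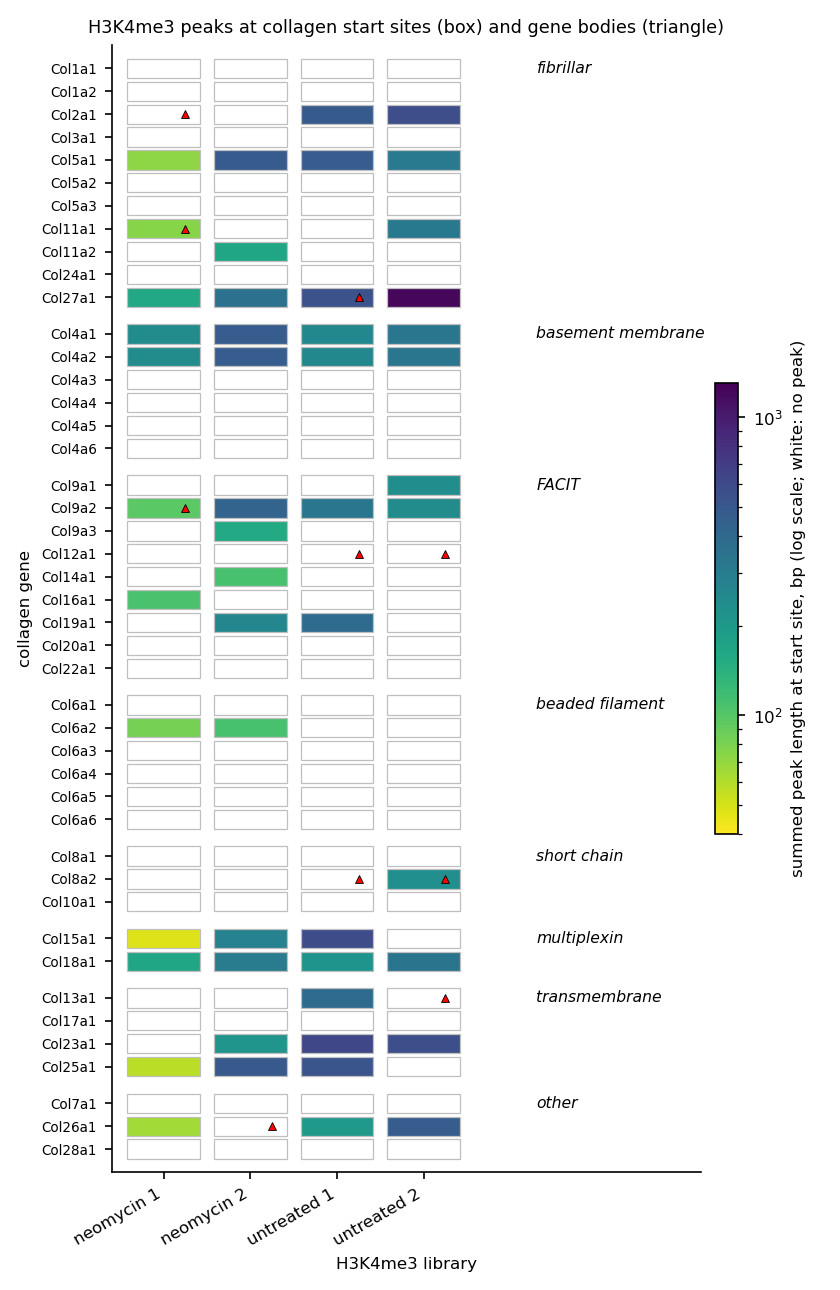
Peaks at the 44 collagen genes (rows, by structural class) in the 4 H3K4me3 libraries (columns): the colour of a box gives the summed length in bp of the peaks at the start site on a log scale, white means no peak, and a red triangle marks a peak in the gene body. Filled boxes run through all 4 columns at 6 genes, and 23 genes have 4 white boxes.

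Among the 11 fibrillar collagens, 5 were marked in at least 1 library, 2 of them in all 4. These 2 were Col5a1, whose type V chain starts fibrils and sets their width, and Col27a1, a fibrillar chain of developing cartilage. At Col5a1 the summed peak length was 72 and 483 bp with neomycin and 470 and 313 bp without. The neomycin replicate 1 value was far below the other 3, and the groups overlapped. Its strongest peak had an authors' fold enrichment over local background of 4.25, 6.0, 12.0 and 7.19 in that order, and in untreated replicate 1 it ranked at percentile 97.5 of its own list by the caller's q. At Col27a1 the sums were 162, 353, 544 and 1226 bp, with both untreated values above both neomycin values. The medians over all promoters marked in all 4 libraries had the same order of groups, at 125, 236, 570 and 468 bp. In untreated replicate 2, 612 of the 1226 bp belonged to a peak whose summit lay outside the window. All 6 pairs of libraries had overlapping peaks at Col27a1, and 5 of 6 did at Col5a1.

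The other 6 fibrillar genes, those of loose connective tissue among them, had no peak at the start. Col1a1 and Col1a2, the chains of type I collagen, Col3a1 of type III, Col5a2 and Col5a3 of type V and Col24a1 were unmarked in all 4 libraries. The nearest peak to the window centre lay 54.8 to 105 kb away for Col1a1, 95.02 to 716 kb for Col1a2 and 339 to 484 kb for Col3a1. For Col1a1 and Col5a2, neither gene end had a peak within 1 kb. A missing peak says only that none was called there, and the depth behind that is unknown.

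Col2a1 encodes the chain of type II collagen of cartilage and of the tectorial membrane. With windows of 1 kb it was the 1 member marked in untreated cells alone, in both libraries, a pattern found in 4.66% of all genes. Col12a1, whose start is not listed, had untreated peaks outside its window and none with neomycin, as given below. The Col2a1 start is not listed either. Its upper end (chr15, 98004724) stood in because it held peaks, and only the untreated libraries had any there. At that end untreated replicate 1 had 1 peak of 494 bp and untreated replicate 2 had 2 peaks that summed to 570 bp. The neomycin libraries had none there, but neomycin replicate 1 had a peak of 57 bp in the gene body, 1.51 kb inside that end, and with a window of 2.5 kb Col2a1 no longer belonged to the untreated cells alone. The untreated peaks shared 337 bp and their strongest ranked at percentiles 63.9 and 12.1 of their lists. Of the 12 mesenchyme and fibrocyte markers, 3 (Coch, Twist1 and Prrx2) had the same pattern, 2 were marked in 1 library and 7 in none. Gene-body peaks were at 2 and 3 of these markers with neomycin and at 1 and 0 without. Of the 10 hair cell markers, 1 (Atoh1) had the pattern, 5 had other patterns and 4 were marked in none. The part of such cells in the Col2a1 result was not tested. In sorted bulk cells, a mark carried by fewer cells and a weaker mark in each cell cannot be told apart. With 2 libraries a group, the libraries part into pairs in 3 ways, so presence was not tested, as no p under 0.333 can be reached.

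The type XI chains copolymerise with type II. Col11a1 had 75 bp of peaks in neomycin replicate 1 and 317 bp in untreated replicate 2, and none in the other two. Neomycin replicate 1 also had a peak of 48 bp 1.03 kb into this gene. Col11a2, a known deafness gene, had a single peak of 165 bp in neomycin replicate 2. Neither gene separated the groups.

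Of the 3 type IX genes, whose product decorates type II fibrils, Col9a2 was marked in all 4 libraries. Its peaks summed to 98 and 429 bp with neomycin and to 331 and 243 bp without, so that the untreated values lay between those of the neomycin libraries. In neomycin replicate 1 the summit lay 885 bp into the gene, and the peak overlapped no untreated peak. Col9a1 was marked in untreated replicate 2 alone, with 236 bp, at the second of its listed start sites (chr1, 24195203) and not at the first (24177610). Col9a3 was marked in neomycin replicate 2 alone, with 159 bp.

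Of the 6 type IV genes of basement membranes, the Col4a1 and Col4a2 pair was marked in all 4 libraries and the other 4 in none. The pair shares its windows, so these are the same peaks counted for both genes. They summed to 241 and 473 bp with neomycin and to 256 and 332 bp without, and the groups overlapped. The peaks were not all at the same place, since 2 of the 6 pairs of libraries overlapped there. The neomycin replicate 1 peak spanned bases 11312588 to 11312828 and so touched both start sites, at percentile 0.359 of its list by q. The untreated replicate 2 peak began at 11312835, on the Col4a2 side, and the untreated replicate 1 peak ended at 11312236, inside Col4a1. Col4a3, Col4a4 and Col4a5, the chains affected in Alport syndrome with its hearing loss, and Col4a6 had no peak at the start or in the gene body. The Col4a4 and Col4a3 genes overlap by 114 bp at their facing ends, and the Col4a6 and Col4a5 genes lie 1274 bp apart. The nearest peaks to the Col4a3 end and the Col4a4 start were 138 kb away in the closest library, and those to Col4a5 and Col4a6 were 810 and 808 kb away.

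In every library the intervals of the fibrillar, basement membrane and cochlear shares overlapped. At least 1 library marked 5 of 11 fibrillar genes (45.5%), 2 of 6 basement membrane genes (33.3%) and 8 of the 12 cochlear genes (66.7%), against 13 of the 32 other collagens (40.6%). In all 4 libraries the counts were 2, 2, 3 and 3. The cochlear group (Col2a1 and all chains of types IV, IX and XI) holds all 6 basement membrane genes and 3 of the fibrillar genes, so the groups are not separate samples. Per library, 4 and 5 cochlear genes were marked with neomycin and 4 and 6 without, and 8, 9, 9 and 6 of the other 32. The widest intervals run from 9.68 to 70.0%, for 2 of 6 genes, and no difference between the classes was tested.

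**Figure D2:**
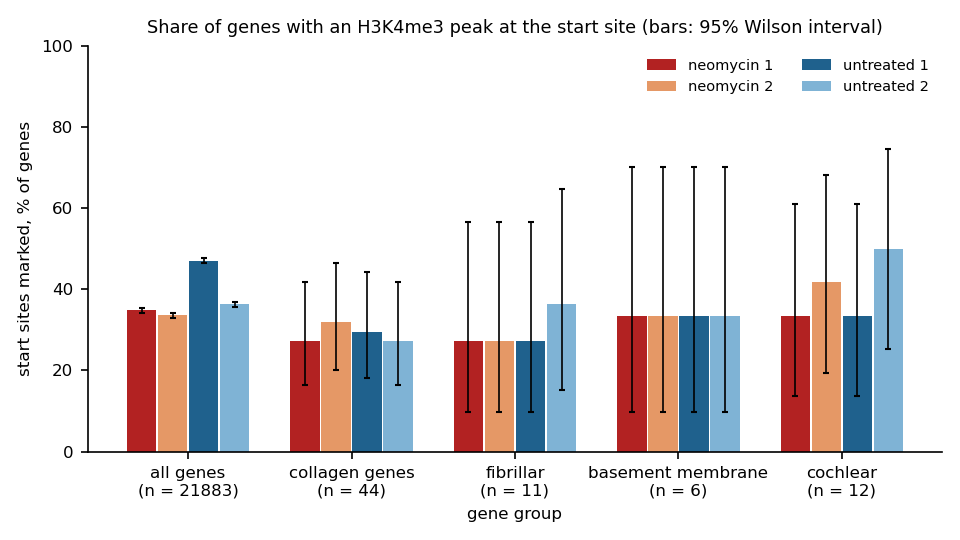
Share of genes with a peak at the start site (y axis, percent) for all genes, all collagens and 3 collagen groups (x axis), 1 bar per library with its 95% Wilson interval. The collagen bars lie at 27.3 to 31.8%, all genes at 33.6 to 47.0%, and the intervals of the small groups overlap each other.

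Both multiplexin collagens, which sit in basement membrane zones, had peaks. Col18a1, whose end fragment is endostatin, was marked in all 4 libraries, with 165 and 306 bp with neomycin and 214 and 339 bp without. These peaks all lay at its upstream start site (chr10, 77166530), and the second listed start (77113705) had none. Its summits lay 586 and 497 bp into the gene in neomycin replicate 1 and 892 and 375 bp in neomycin replicate 2, against 77 and 152 bp in the untreated libraries. Neomycin replicate 1 shared no base with either untreated library there. The related Col15a1 had 48, 277 and 583 bp in neomycin replicates 1 and 2 and untreated replicate 1, and no peak in untreated replicate 2.

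Col6a2, a chain of the beaded filaments of type VI collagen, was the 1 member marked with neomycin alone, in both libraries, a pattern found in 1.41% of all genes. The peaks were short, at 83 and 110 bp, and nearly coincided (chr10, 76623278 to 76623360 and 76623274 to 76623383). They ranked at percentiles 27.3 and 18.8 of their lists. Neither reached an overlap of 200 bp, a length above the median peak of both neomycin lists (70 and 142 bp). Of its partner chains, Col6a1 and Col6a3 had no peak in any library, and the nearest peaks to the Col6a1 start lay 73.0 to 257 kb away. Col6a4, Col6a5 and Col6a6 had none either.

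Of the 4 transmembrane collagens, Col23a1 was marked in all libraries except neomycin replicate 1 (212, 617 and 565 bp) and Col25a1 in all except untreated replicate 2 (57, 496 and 522 bp). Col13a1 was marked in untreated replicate 1 alone, with 392 bp, and Col17a1, a chain of hemidesmosomes, in none. Col26a1 had 65, 197 and 472 bp in neomycin replicate 1 and the untreated libraries, and in neomycin replicate 2 a peak of 110 bp 1.15 kb inside the same gene end. Among the FACIT genes other than type IX, Col14a1 was marked in neomycin replicate 2 alone (110 bp) and Col16a1 in neomycin replicate 1 alone (108 bp). Col19a1 had 258 bp in neomycin replicate 2 and 392 bp in untreated replicate 1. Col12a1, Col20a1 and Col22a1 were unmarked, as were Col7a1 of the anchoring fibrils of skin, Col28a1, Col8a1 and Col10a1 of growth plate cartilage. Col8a2 had 234 bp in untreated replicate 2 alone. None of these genes separated the groups at the start window, and the Col12a1 peaks away from its window are given below.

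At the start sites of members with a listed start, the summit of the strongest peak lay a median of 144, 122.5, 143 and 141 bp into the gene. It lay inside the gene at 10 of 11, 10 of 12, 9 of 11 and 7 of 10 genes. Over all genes with a listed start the medians were 207, 160, 194 and 215 bp, and 75.4, 74.8, 80.8 and 81.3% lay inside the gene. The strongest collagen peaks ranked lower in their lists than those of all marked genes, collagens included. The median percentiles were 27.3, 48.2, 33.0 and 36.1 against 53.0, 57.9, 63.9 and 61.5. These values describe the libraries and were not tested.

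**Figure D3:**
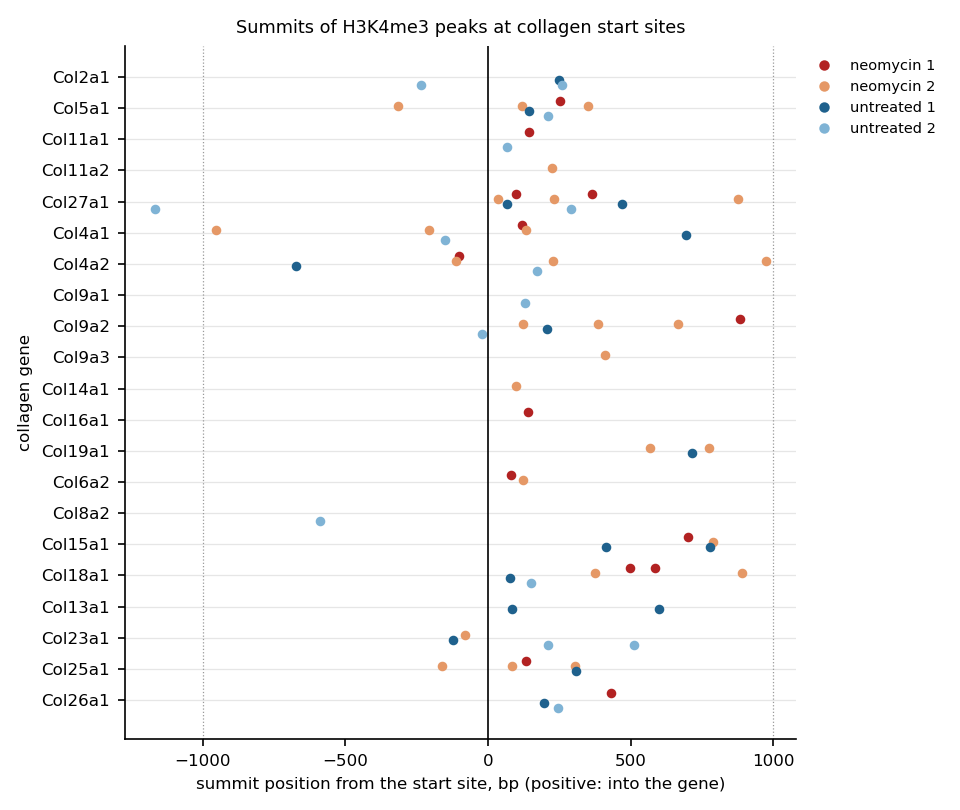
Summits of all peaks at the start sites of the 21 marked collagen genes (rows), as distance from the start site in bp (x axis, positive into the gene, dotted lines at 1 kb), coloured by library. Most summits lie close after the start, and those of Col15a1 and Col19a1 lie between 413 and 788 bp.

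Marked collagen promoters were richer in CpG than unmarked ones. The reference gives the 300 bases from 250 before to 50 after 38 start sites of the 35 members. In these, the median was 25.5 CpG at the 6 start sites marked in all 4 libraries, 16 at the 12 marked in 1 to 3 and 6 at the 20 marked in none. Over 21262 start sites of all genes the medians were 26, 21 and 3. A promoter is called CpG-rich here when at least 50% of its bases are G or C and the CpG count is at least 0.6 of that expected from them. By that measure 11 of 38 collagen start sites (29.0%) were CpG-rich, beside 45.2% of all. Of these 11, 10 were marked in at least 1 library (90.9%), and of the 27 others 8 were (29.6%). Over all genes the shares were 91.1% and 23.2%. Per library, 5, 8, 8 and 6 of the 11 CpG-rich collagen start sites were marked, or 45.5, 72.7, 72.7 and 54.5%, beside 59.7, 58.3, 80.4 and 64.1% of all CpG-rich ones. Of the 27 others 7, 5, 3 and 4 were marked, or 25.9, 18.5, 11.1 and 14.8%, beside 12.9, 12.0, 17.4 and 11.6% of all. The genes are not independent replicates, and the values were not tested.

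Of the 18 marked collagen start sites, 8 were not CpG-rich. These were the starts of Col9a2, Col11a1, Col15a1, Col16a1 and Col18a1, both starts of Col6a2, and the second start of Col9a1, which held 1 CpG. Col5a3 was the CpG-rich promoter with no peak, at 0.665 of the expected CpG. Col9a2 and Col18a1 were marked in all 4 libraries at 0.352 and 0.538 of the expected CpG, and Col4a1 had the highest value of these 6, at 0.902. Col3a1, Col28a1 and the first start of Col9a1 held no CpG. The letters TATAAA, searched on both strands, were in 5 of 38 collagen promoters (13.2%), namely Col3a1, Col10a1, Col11a2, Col13a1 and Col17a1, and in 12.6% of all. The letters CCAAT, also on both strands, were in 13 of 38 (34.2%) and in 38.2% of all. A match is only a run of letters.

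**Figure D4:**
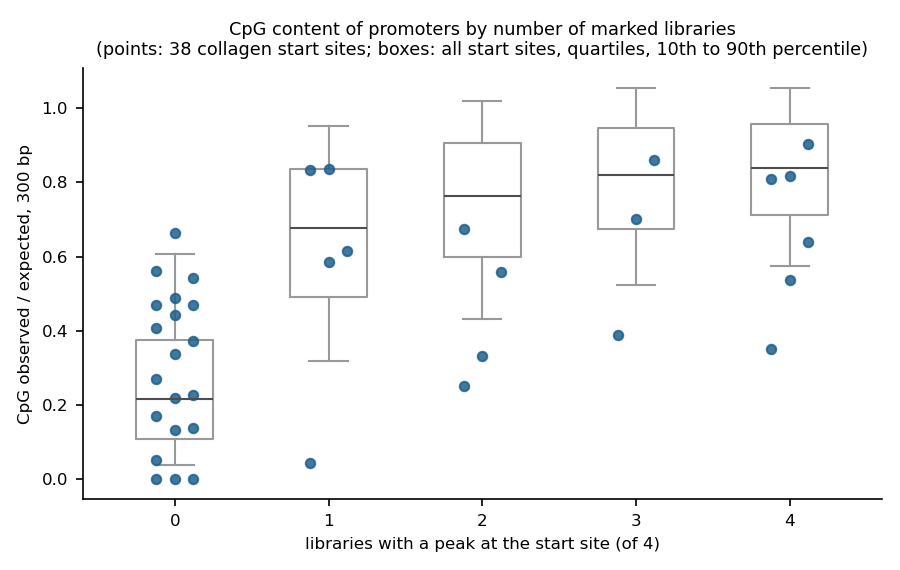
CpG observed over expected in 300 bp around the start (y axis) by the number of libraries with a peak at that start (x axis), with the 38 collagen start sites as points and all start sites as boxes (quartiles, whiskers from the 10th to the 90th percentile). Collagen points without a peak lie under 0.6 except Col5a3 at 0.665, and those with 4 marked libraries run from 0.352 to 0.902.

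Marked length could be compared at the 6 members marked in all 4 libraries. The summed peak length at each start was put on the log2 scale, centred on the median of its library and fitted with limma over all 3636 promoters marked in all 4. None of the 3636 (0%) passed an adjusted p of 0.05, 351 had an unadjusted p under it, and 1 passed when the longest peak replaced the sum. The library medians were 125 and 236 bp with neomycin and 570 and 468 bp without. The shortest peaks of the lists were 48 and 110 bp against 187 and 234 bp, so these lengths cannot part treatment from peak calling. At Col4a1 and Col4a2 the sums of 241 and 473 against 256 and 332 bp gave a centred log2 difference, neomycin minus untreated, of 1.80 (SE 0.61, limma adjusted p 0.276). At Col18a1 it was 1.33 (SE 0.61, limma adjusted p 0.486), at Col9a2 1.12 (SE 0.62, adjusted p 0.564), at Col5a1 0.55 (SE 0.65, adjusted p 0.841) and at Col27a1 -0.18 (SE 0.63, adjusted p 0.961). A positive value says that the gene's peaks were less short with neomycin than the typical promoter's were. Without centring, the differences were 0.21 at the Col4a1 pair and -0.26, -0.47, -1.04 and -1.77 at Col18a1, Col9a2, Col5a1 and Col27a1, so that 3 changed sign. The Col4a1 pair passed when neomycin replicate 2 was left out (log2 1.77, limma adjusted p 0.0423, range over its alternatives 0.0423 to 0.9996) and not in the other alternatives.

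**Figure D5:**
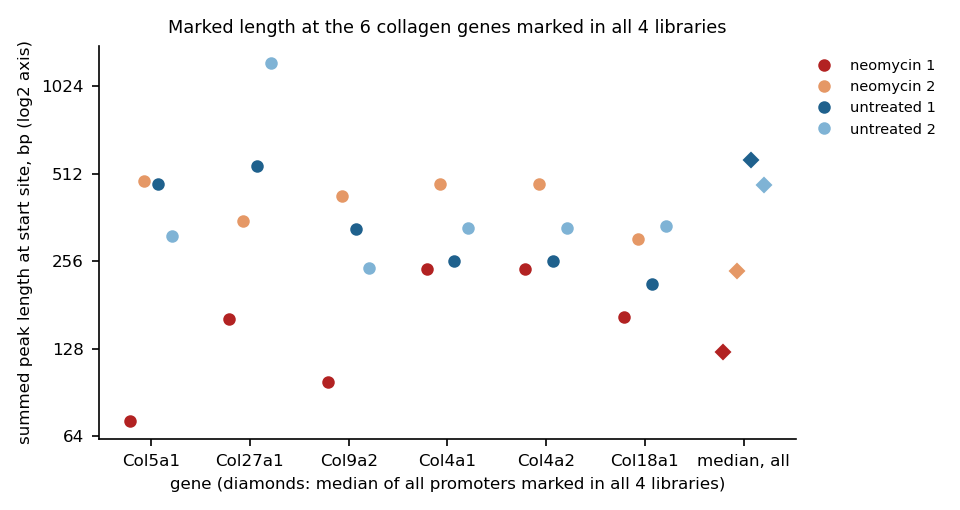
Summed peak length at the start site in bp (y axis, log2 scale) at the 6 collagen genes marked in all 4 libraries, 1 point per library, with the median of all 3636 such promoters as diamonds. The diamonds fall from 570 and 468 bp in the untreated libraries to 125 and 236 bp with neomycin, while the Col4a1 pair lies at 241 to 473 bp in all 4. The shortest peaks of the lists also differ, at 187 and 234 bp untreated and 48 and 110 bp with neomycin.

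Peaks in the gene bodies were few per Mb of gene, but the share of collagen genes with one in some library was not low. Counted apart from the start windows, 8 of 44 collagen genes had one in at least 1 library and none had one in all 4, beside 13.0% and 1.70% of all genes. There were 3, 1, 4 and 4 such peaks per library. Per Mb of gene this was 0.551, 0.184, 0.735 and 0.735, against 2.17, 1.70, 2.25 and 1.34 over all genes. Collagen genes are long, with a median of 114 kb against 17.2 kb. The rate per Mb divides by that length, and the part of length in it was not tested.

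Col12a1, a FACIT collagen of tendon and fascia, had peaks counted as body peaks in each untreated library and none with neomycin. They were 639 bp long in untreated replicate 1 and 437 and 332 bp in untreated replicate 2 (chr9, 79718295 to 79719301 together), with summits 2.342, 2.502 and 1.939 kb inside the upper gene end. The nearest neomycin peaks lay 38.4 and 38.8 kb outside the gene. No start or strand is listed for Col12a1, and neither gene end had a peak within 1 kb. Its lower end (79598987) therefore stood in for the start. Should the start lie at the upper end, these untreated peaks would be near it, so promoter and body cannot be told apart here. With a window of 2.5 kb Col12a1 counted as marked in untreated cells alone. Col8a2, a chain of the network under the corneal endothelium, had untreated peaks 13.9, 14.4 and 15.1 kb into the gene that did not coincide between the libraries. Col27a1 had a peak of 209 bp upstream of its listed start (summit at -1.23 kb) in untreated replicate 1, inside the annotated gene, and untreated replicate 2 had a longer one of 612 bp there that reached the window. The others were single peaks in Col2a1, Col9a2, Col11a1, Col13a1 and Col26a1.

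Of 70 other genes that make, process, bind or control collagen, 48 (68.6%) were marked in at least 1 library and 11 (15.7%) in all 4, beside 55.0% and 16.6% of all genes. The share in all 4 was close to that of all genes. Per library, the counts were 34 (48.6%) and 23 (32.9%) with neomycin and 39 (55.7%) and 34 (48.6%) in untreated cells, beside 34.8, 33.6, 47.0 and 36.3% of all genes. At least 1 library marked 16 of the 17 genes for folding and modification in the endoplasmic reticulum. Every library had a peak at 5 of the 17 (29.4%), beside 16.6% of all genes, and the difference was not tested. Among these 5 were P4ha1, P4hb and P3h1, which encode parts of the proline hydroxylating enzymes. The P3h1 window also holds the start of AU022252. The related P4ha3 and P3h3 had peaks in 3 libraries each, P3h2 in the 2 untreated ones and P4ha2 in 1. Of the 13 genes for processing and cross-linking, neomycin libraries marked 6 and 1 and untreated libraries 7 and 8. Of the 11 basement membrane partners, neomycin libraries marked 6 and 7 and untreated libraries 6 and 4. Of the 8 tectorial membrane and otic matrix partners, neomycin libraries marked 0 and 1 and untreated libraries 2 each. Sox9, the transcription factor that drives Col2a1 and Col11a2 in cartilage, was marked in all 4 libraries.

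Of the 70, 5 were marked in untreated cells alone, in both libraries. Coch, which encodes the matrix protein cochlin, had 420 and 835 bp, Sp7, a bone transcription factor, 476 and 300 bp, and the collagenase gene Mmp2 250 and 234 bp. P3h2, a prolyl hydroxylase, had 306 and 234 bp, with a body peak in neomycin replicate 1. Bmp1, whose product trims the ends of fibrillar procollagens, had 913 and 497 bp in a window that also holds the start of Sftpc. The reverse held for 3 genes. Lamb2 and Nid2, which encode basement membrane partners of type IV collagen, had 201 and 257 bp and 133 and 144 bp with neomycin. Itga1, a collagen receptor subunit, had 150 and 200 bp with neomycin and 1 body peak in each untreated library. These 5 and 3 genes are 7.14% and 4.29% of the 70, beside 4.66% and 1.41% of all genes with these patterns. The difference was not tested. The start site was not listed for P3h2, Bmp1, Mmp2, Sp7 and Nid2. There the gene end with peaks in more libraries stood in, so the peaks themselves set the window. Coch is also 1 of the mesenchyme and fibrocyte markers.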

How the data were processed

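Peak lists of 4 H3K4me3 libraries were used, 2 per group as labelled. Each library has its own list. The submitters' processing notes name CASAVA 1.4, Bowtie2, MACS2 and deepTools and the build mm10, and what each did, with which parameters and inputs, is not given in the sources used here. Peak lengths (bp) and pileup signal stand in the lists per the file headers. The deposited lists also give the authors' fold enrichment (a ratio) and -log10 p-value and q-value, which rank or filter peaks within 1 list (a percentile is the rank by q).

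Start sites came from RefSeq promoter entries for GRCm38.p6, listed for 17491 of 21883 genes. Where several were listed (3 members), a peak at any of them counted, and the most upstream alone was an alternative chosen after seeing the data. Elsewhere the gene end with peaks in more libraries, then more peak bases, then the lower coordinate, stood in. Peaks in a gene outside the window were body peaks. Adjusted p-values (Benjamini-Hochberg) came from limma 3.58.1 in R 4.3.3. Intervals are Wilson. Python 3.11.15 with pandas 2.3.3 and scipy 1.17.1 did the rest, and the code was tested on simulated data. All collagens are accounted for. Each library's value is given for members marked in all 4 libraries, those marked in 1 group alone and cochlear chains. Pathway genes are named where marked in both libraries of 1 group alone. Other genes named were chosen after their values were seen. The members and lists were chosen with earlier results of these data known.

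Alternatives changed the window, overlap, q, list length, gene end, centring and length measure, blocked on replicate number, and left out each library.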

Additional observations from a re-analysis of the deposited data

How the results depend on the processing

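The 6 members marked in all 4 libraries fell to 3 with a window of 0.5 kb, to 2 with an overlap of at least 200 bp, and to 0 at a -log10 q minimum of 10 or with lists of equal length, and numbered 6 to 8 when 1 library was left out. The q minimum and the 200 bp setting fall unevenly on the lists. At that q, 747 and 283 neomycin peaks and 6279 and 2259 untreated peaks were left, so the counts of 0 there say little about collagens. Neomycin peaks had medians of 70 and 142 bp, while no untreated replicate 2 peak was under 234 bp. Leaving out 1 library only relaxes the rules here, so no count of members could fall by it. Members marked in untreated cells alone (1) numbered 0 at that q, 2 with lists of equal length, 4 with 200 bp of overlap, 2 with either gene end and 2 to 3 without 1 library. Col2a1 was among them whichever library was left out, as any gene that meets the rule with 4 libraries must be. With a window of 2.5 kb Col12a1 took its place. Members marked with neomycin alone (1) numbered 0 at that q, 2 with lists of equal length, 0 with 200 bp of overlap and 1 to 4 without 1 library. Body peaks in all 4 libraries stayed at 0 in the 8 alternatives. The most upstream start alone changed none of these names.

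Promoters that passed limma on marked length (0) numbered 1131 without centring, all shorter with neomycin, 1 with the longest peak, and 0 to 307 without 1 library (115 without neomycin replicate 1, 307 without neomycin replicate 2). Of 48 alternatives at the members, 41 kept direction and call. Without centring, Col18a1, Col5a1 and Col9a2 turned to -0.26, -1.04 and -0.47. Uncentred lengths carry the unlike shortest peaks of the lists, 48 and 110 bp with neomycin and 187 and 234 bp without. With 1 library left out, Col5a1 ran from -0.37 (without neomycin replicate 2) to 1.46, Col27a1 from -0.91 to 0.54 (without untreated replicate 2), and the Col4a1 pair from 1.47 to 2.13, passing at 1.77 without neomycin replicate 2. Fits without 1 library assume that the lone library varies like the others. The causes were not tested. Marked length showed no pairing by replicate number (r = -0.02 over 3636 promoters between the groups' replicate differences). Length alone cannot tell whether the libraries were paired in the experiment. With the replicate block 0 promoters passed, and the Col4a1 pair had 1.80 with a limma adjusted p of 0.241.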
